A study of Mus musculus with 4 samples.

Results

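The genes described here encode hormones that the liver secretes, 1 hormone receptor, and the carrier proteins counted with them. They are Fgf21, Gdf15, Angptl4, Angptl8, Fst, Ahsg, Fetub, Rbp4 and Lepr. Accessible chromatin was taken from the authors' lists of ATAC-seq peaks, which are stretches of DNA that the Tn5 transposase cut often enough for a caller to list them. A peak was kept when it lay inside one of the 9 genes or within 50 kb of either end, with gene coordinates from the RefSeq table of GRCm38.p6 (mm10). Peaks of the 4 libraries that overlapped or touched were merged, and 54 of the 38853 merged regions of the series fell into these windows. The genes themselves are 9 of 21631 protein-coding genes on chromosomes 1 to 19 and X.

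The livers came from female FVB mice aged 11 weeks on standard chow. Wild-type mice gave 2 libraries (WT 1 and WT 2), and mice labelled PA gave 2 (PA 1 and PA 2). The labels describe the PA mice as hypomorphic Pcca-/- (A138T). Pcca encodes a subunit of propionyl-CoA carboxylase, and its loss causes propionic acidemia. The 4 labels share sex, age, tissue and strain, and the series design calls the replicates biological. A list of positions does not test the Pcca genotype. Whole liver was used, so fewer cells of a type and less open chromatin per cell cannot be told apart.

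Hepatokines are proteins by which the liver signals to other organs. FGF21 and GDF15 are released under nutritional and cellular stress, and act through beta-Klotho with FGF receptors and through GFRAL. ANGPTL4 and ANGPTL8 restrain lipoprotein lipase, follistatin binds activins, the fetuins are abundant plasma proteins, RBP4 carries retinol, and LEPR is the receptor of leptin. Transcription of such genes is set by their promoters and by enhancers that can lie far from the gene, and both are usually found in accessible chromatin.

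Each list gives positions only. A region counts as called in a library if it holds at least 1 of that library's peaks. PA-only means called in both PA and neither WT library, and WT-only the reverse. The WT lists had 26280 (WT 1) and 25941 (WT 2) lines and the PA lists 25683 (PA 1) and 29765 (PA 2), and read depth is unknown. Lines are not in genome order, and the sources used here do not say what they are ordered by. The place of a peak is given as the percentage of the way down its own list, so a small percentage is near the top. Over the member regions shared by a pair of libraries (28 to 37 regions), the places had a Spearman correlation of 0.865 to 0.951, a description across regions that share libraries. A gene end counts as covered when a peak lies within 1 kb of it. As a check of tissue, 5 of 10 hepatocyte marker genes had a covered end in all 4 libraries (Ttr, Cps1, Cyp2e1, Pck1 and Apob). Alb, Apoa1, Hnf4a, Tat and Asgr1 did not, and 2 of the 10 had one in no library. All 4 libraries covered an end of 0 of 6 Kupffer cell markers and 3 of 6 endothelial markers (Kdr, Tek and Tie1). It was 1 of 5 stellate cell markers and 0 of 5 bile duct markers. Over all protein-coding genes the share was 41.3%, so these calls do not set hepatocyte markers apart from endothelial markers or from genes at large.

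No hepatokine gene had a covered end in all 4 libraries. Angptl8 had one in WT 2 and PA 1, Ahsg in WT 2, PA 1 and PA 2, and Lepr in WT 1. The other 6 genes had one in no library. Thus 0 of 9 genes were covered in all 4 libraries against 41.3% of all protein-coding genes, 3 in some libraries against 10.4%, and 6 in none against 48.3%. Widening the distance to 2 kb, a setting chosen after seeing the data, brought in Fst and Fetub, 2 of 9 genes, against 44.5% of all genes. Open regions around the genes were not scarce: a window held 7 regions in the median, against 4 over all protein-coding genes.

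**Figure D1:**
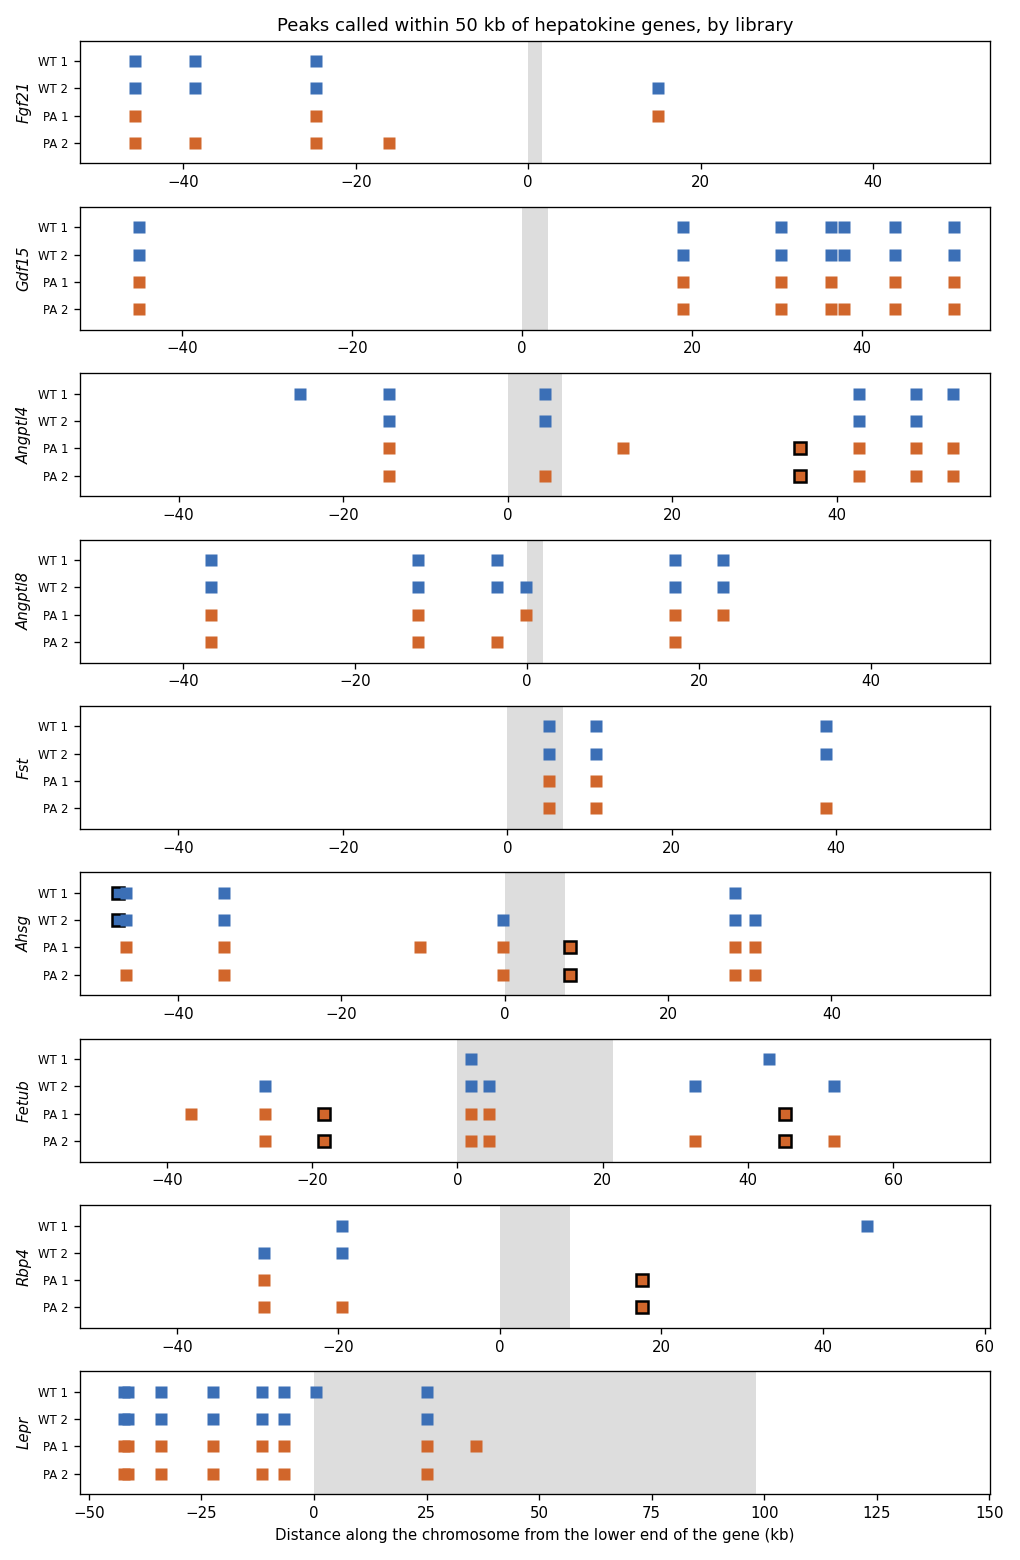
Peaks of each library within 50 kb of the 9 genes, by distance in kb along the chromosome from the gene end with the smaller coordinate. Grey marks the gene, blue squares are WT, orange squares are PA, and black outlines mark the PA-only and WT-only regions. Ahsg and Fetub are neighbours, so 5 regions appear in both panels.

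Of the 54 regions, 26 (48.1%) were called in all 4 libraries, against 45.3% of all regions. A further 11 (20.4%) were called in exactly 3, against 13.4%, and 8 (14.8%) in 1, against 26.8%. Among the 11 called in 3, PA 1 was the missing library at 6, WT 1 at 3, and WT 2 and PA 2 at 1 each. Over all regions called in exactly 3, PA 1 was missing from 43.1%, WT 1 from 26.1%, WT 2 from 21.0% and PA 2 from 9.82%. The member regions thus lacked PA 1 most often, as did those of the whole genome. PA-only regions numbered 4 (7.41%, against 3.38% of all regions) and WT-only regions 1 (1.85%, against 1.98%). The PA-only regions lay in the windows of Angptl4, Ahsg, Fetub and Rbp4, so 4 of 9 genes had at least 1, against 9.73% of all genes. The PA-only region at 22899840 counts for both Ahsg and Fetub. Member windows also held more regions (7 in the median, against 4), so these shares by gene are not like for like. The WT-only region lay in the Ahsg window, 1 of 9 genes against 6.58%. Counts this small are a description of single loci.

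The number of peaks within 50 kb of the genes did not separate the genotypes. In all windows together WT 1 had 39 peaks, WT 2 had 41, PA 1 had 40 and PA 2 had 43. The libraries of each genotype overlapped the other. WT libraries averaged 40.0 ± 1.41 peaks (SD, n = 2) and PA libraries 41.5 ± 2.12 (SD, n = 2). The difference of 1.5 peaks was smaller than the SD of the PA libraries (exact permutation test over libraries, two-sided, p = 0.667). With 2 against 2 libraries that test cannot go below 0.333. The difference was -0.5 in the upper 50% of each list and -0.0312 when counted per 1000 peaks of the list. Within 10 kb of the genes the groups did not overlap: WT 1 had 8 peaks and WT 2 had 10, and PA 1 had 12 and PA 2 had 11. That difference was 2.5 peaks (exact permutation test, two-sided, p = 0.333, the smallest this design allows). These 10 kb counts are not scaled by list length, and PA 2 has the longest list and PA 1 the shortest. Per line of its list, PA 2 (11 of 29765) lay below WT 2 (10 of 25941). The groups thus overlapped once list length was taken into account. The share of all genes with such a separation within 10 kb was not counted. By gene, the counts overlapped for every member but Fetub.

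**Figure D2:**
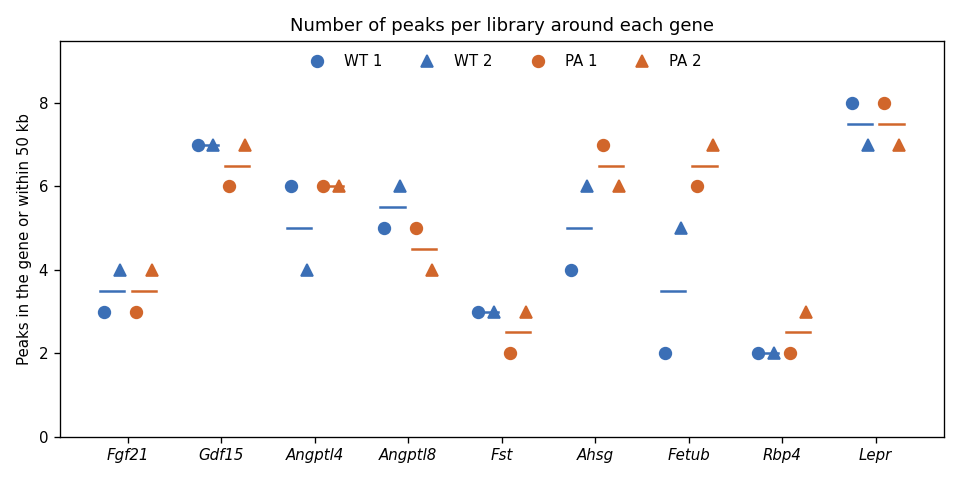
Peaks inside or within 50 kb of each gene, by library. Circles are replicate 1, triangles replicate 2, blue WT, orange PA, and lines the group means; both PA values lie above both WT values at Fetub, with 6 and 7 peaks against 2 and 5.

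Fgf21 encodes the fasting-induced hormone that acts on fat and brain (chromosome 7, 45613890 to 45615490, minus strand, start at 45615490). No library had a peak at its start. The nearest peak to the start lay 25983 bp away (WT 1), 13195 bp (WT 2), 13250 bp (PA 1) and 17528 bp (PA 2). The promoter is shown because it was called in no library and holds several of the motifs searched.
Fgf21, chr7:45615491-45615740, minus strand: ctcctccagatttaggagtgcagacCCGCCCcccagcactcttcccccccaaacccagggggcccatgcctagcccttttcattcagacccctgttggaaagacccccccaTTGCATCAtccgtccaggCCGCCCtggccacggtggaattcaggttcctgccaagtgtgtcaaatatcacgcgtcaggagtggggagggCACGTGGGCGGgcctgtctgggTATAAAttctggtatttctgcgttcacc
Capitals mark matches to motifs that were searched on both strands in the 250 bases before each start. They are 3 GC boxes (GGGCGG, held by 43.0% of 21020 promoters of protein-coding genes), the E-box CACGTG (6.69%), the C/EBP-ATF composite TGATGNAA (3.02%, here on the other strand at -139 to -132) and the TATA box TATAAA (11.7%, at -28 to -23). Positions count from the start, with -1 just before it. The E-box and 1 GC box share a base. A match is a run of letters and not a shown binding site.

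The 5 regions of the Fgf21 window lay outside Fgf21, and the nearest gene end was that of Bcat2 or Rasip1. A region between genes at chr7:45568076-45568475, 492 bp from an end of Bcat2 and 45415 bp from Fgf21, was called in all 4 libraries. It stood high in each list, at 5.45% (WT 1), 4.98% (WT 2), 12.1% (PA 1) and 4.73% (PA 2). The region at chr7:45589108-45589543 overlaps Bcat2, the mitochondrial branched-chain aminotransferase, near its upper end and was also called in all 4 (46.0%, 44.8%, 39.4% and 52.4%). A region inside Bcat2 at 45574989 was missing from PA 1, and one inside Rasip1 at 45628685 was called in WT 2 and PA 1. PA 2 alone had a peak at 45597563, inside no gene and 7853 bp from an end of Bcat2. No region of this window was restricted to a genotype.

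Gdf15 encodes the stress hormone sensed by the brainstem receptor GFRAL (chromosome 8, 70629393 to 70632470, minus strand, starts at 70632456 and 70632095). It had no covered end, and the nearest peak to a start lay 15635 bp away in WT 1 and WT 2, 15630 bp in PA 1 and 15629 bp in PA 2. The libraries placed that peak within a few bases of each other. That region, inside Pgpep1 at chr8:70648085-70648490, stood at 11.0%, 12.7%, 24.3% and 9.47% in WT 1, WT 2, PA 1 and PA 2. The window was the most evenly called of the hormone genes, with 6 of 7 regions in all 4 libraries. Its highest region, over an end of Lsm4 at 70673029, stood at 5.69%, 3.70%, 6.64% and 5.56%. PA 1 lacked the region at 70667012, and that was the only missing call in the window. A region inside Ell, at 70584084, lay 44879 bp from Gdf15 and was called in all 4 libraries. None of the 7 regions was restricted to a genotype.

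Angptl4 encodes a fasting-induced inhibitor of lipoprotein lipase and a target of PPARA (chromosome 17, 33774900 to 33781575). It held 1 region, 1883 bp from its upper end at chr17:33779260-33779692. WT 1 (27.1%), WT 2 (29.2%) and PA 2 (34.0%) had it. PA 1 did not, and its nearest peak was 9054 bp away. Calls in both WT and 1 PA library do not separate the genotypes. The promoter table holds no entry for Angptl4 or Fst.

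The PA-only region of the Angptl4 window lay 28652 bp from that gene, over the start of Kank3, which encodes an ankyrin-repeat protein (chr17:33810227-33810631). It stood at 57.6% in PA 1 and 65.1% in PA 2, with 6809 bp to the closest WT peak. Its peaks began 5 bases apart, and their middles lay 97 and 92 bp before the Kank3 start. The Kank3 promoter is shown because it is the only start site of a coding gene under a PA-only region in these windows, a choice made after seeing the values.
Kank3, chr17:33810273-33810522, plus strand: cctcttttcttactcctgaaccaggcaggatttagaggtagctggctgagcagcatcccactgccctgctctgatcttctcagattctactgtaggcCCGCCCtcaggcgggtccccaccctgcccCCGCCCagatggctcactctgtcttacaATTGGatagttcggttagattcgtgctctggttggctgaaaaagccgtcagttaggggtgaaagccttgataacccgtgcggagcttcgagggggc
Capitals mark 2 GC boxes on the other strand and a CCAAT box on the other strand (ATTGG, at -96 to -92). CCAAT occurs in 35.6% of promoters. No other region of the Angptl4 window was PA-only or WT-only. Regions at 33817440 and 33824377 were in all 4 libraries, the latter over the neighbouring starts of Rps28 and Ndufa7. So was the region over the start of Rab11b at 33760248 (9.57%, 10.3%, 10.5% and 8.58%). WT 1 alone had a peak inside Rab11b at 33749465 (82.6%), and PA 1 alone had a peak at 33788746 (79.1%). WT 2 alone lacked the region inside Ndufa7 at 33828802.

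Angptl8 encodes a feeding-induced regulator of lipoprotein lipase and lies inside the Dock6 gene (chromosome 9, 21835510 to 21837347, plus strand). Its start was covered in 1 library of each genotype, WT 2 at 5.76% and PA 1 at 16.8%, with peak middles 121 and 131 bp before the start. WT 1 and PA 2 had no peak within 2955 bp of that region. A region 3285 bp upstream, at chr9:21831826-21832225, had a peak of WT 1 (9.70%), WT 2 (5.93%) and PA 2 (3.18%) but none of PA 1. So WT 2 had both regions, WT 1 and PA 2 had the upstream one alone, and PA 1 had the start alone. Neither pattern follows genotype.
Angptl8, chr9:21835260-21835509, plus strand: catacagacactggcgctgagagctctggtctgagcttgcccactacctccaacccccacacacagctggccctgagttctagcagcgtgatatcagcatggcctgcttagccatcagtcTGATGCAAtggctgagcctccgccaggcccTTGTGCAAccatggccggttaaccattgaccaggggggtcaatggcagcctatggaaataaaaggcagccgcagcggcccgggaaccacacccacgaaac
Capitals mark the composite TGATGCAA at -130 to -123 and a C/EBP motif on the other strand (TTGCNNAA, held by 9.18% of promoters) at -100 to -93. The composite lies between the middles of the WT 2 and PA 1 peaks. Both Angptl8 regions stood in the upper 10% of at least 1 list and were still absent from another. Of the 8 member regions in the upper 10% of a list, these were the 2 with a missing library, against 4.21% of 3749 such regions in the series. Elsewhere in the window, the regions at 21798463, over the start of Kank2, at 21822648 inside Dock6 and at 21852532, over the start of Dock6, were called in all 4 libraries. PA 2 lacked the one at 21858066.

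Fst encodes follistatin, the activin-binding antagonist (chromosome 13, 114452262 to 114458989). It is the only gene in its window, and 2 of its 3 regions were called in all 4 libraries. One lay inside the gene, 1378 bp from its upper end (chr13:114457137-114457611), at 38.5% (WT 1), 52.8% (WT 2), 35.4% (PA 1) and 42.2% (PA 2). The other lay 3802 bp beyond that end (114462791 to 114463194), at 29.9%, 42.4%, 35.4% and 36.8%. In both regions the places of the genotypes overlapped. The distal region at 114490839 stood low in the lists (78.4%, 81.1% and 95.5%) and was missing from PA 1.

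Ahsg and Fetub encode the fetuins, plasma glycoproteins of the cystatin superfamily, and lie next to each other on chromosome 16 (22892015 to 22899451 and 22918382 to 22939768, both on the plus strand). Their windows share 5 regions and hold 12 between them. WT 1 had 5 of these 12, WT 2 had 8, PA 1 had 8 and PA 2 had 9. WT 1 stood apart from the other 3 libraries, including the other WT library.

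The Ahsg start was covered in WT 2 (12.6%), PA 1 (31.4%) and PA 2 (14.0%). WT 1 had no peak there, and its nearest one lay 27919 bp away. The peak middles lay 120, 191 and 124 bp before the start in WT 2, PA 1 and PA 2.
Ahsg, chr16:22891765-22892014, plus strand: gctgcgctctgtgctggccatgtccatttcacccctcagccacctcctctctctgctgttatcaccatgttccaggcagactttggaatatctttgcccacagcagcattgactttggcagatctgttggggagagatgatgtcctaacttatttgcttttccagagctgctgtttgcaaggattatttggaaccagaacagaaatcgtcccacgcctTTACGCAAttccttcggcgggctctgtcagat
Capitals mark a C/EBP motif on the other strand at -32 to -25. At the far end of the gene, 389 bp beyond it, lay the PA-only region of this window (chr16:22899840-22900256, 29.3% in PA 1 and 17.6% in PA 2). The nearest peak of WT 2 was 7745 bp away, and that of WT 1 was 19758 bp away. The absence of WT 1 was thus shared with the start and the absence of WT 2 was not. Without WT 2, the start would also be PA-only. The WT-only region of the window, inside Tbccd1 at chr16:22844432-22844872 (56.2% in WT 1 and 61.1% in WT 2), had a PA peak 630 bp away in a region called in all 4 libraries. PA 1 alone had a peak at 22881461, between Dnajb11 and Ahsg.

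The start of Dnajb11, a co-chaperone of the endoplasmic reticulum 34101 bp from Ahsg, was the highest region of all the windows. It stood at 4.16% (WT 1), 1.34% (WT 2), 2.36% (PA 1) and 1.56% (PA 2). Calls at this neighbour were therefore complete in WT 1, while the Ahsg start was missing from it.

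The 2 annotated starts of Fetub differed. The upstream one, at 22918382, was covered in no library, and the downstream one, at 22920222, in all 4. It stood at 27.1% (WT 1), 17.7% (WT 2), 32.3% (PA 1) and 28.2% (PA 2), with peak middles 9, 58 and 2 bp before it in WT 1, WT 2 and PA 1 and 86 bp after it in PA 2. Both PA libraries placed it further down than both WT libraries. Both promoters are shown to set the called start beside the one without a call.
Fetub upstream start, chr16:22918132-22918381, plus strand: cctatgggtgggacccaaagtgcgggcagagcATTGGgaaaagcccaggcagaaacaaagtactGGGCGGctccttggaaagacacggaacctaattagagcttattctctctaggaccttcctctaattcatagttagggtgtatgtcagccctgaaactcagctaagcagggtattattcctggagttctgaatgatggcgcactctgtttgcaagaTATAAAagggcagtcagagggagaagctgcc
Fetub downstream start, chr16:22919972-22920221, plus strand: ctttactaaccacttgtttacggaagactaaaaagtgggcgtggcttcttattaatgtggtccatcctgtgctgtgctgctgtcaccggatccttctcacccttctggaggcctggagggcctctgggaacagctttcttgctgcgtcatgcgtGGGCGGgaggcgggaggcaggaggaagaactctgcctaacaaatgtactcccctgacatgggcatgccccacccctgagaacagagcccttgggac
Capitals in the upstream promoter mark a CCAAT box on the other strand, a GC box and a TATA box at -31 to -26. The downstream one has a single GC box and no TATA box. GC content was 49.2% upstream and 56.0% downstream, with 4 and 7 CpG.

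Fetub was the only member with more peaks in both PA than in both WT libraries, a pattern that 6.60% of protein-coding genes had. The reverse, with more peaks in both WT libraries, held for 3.37% of genes and for no member. The Fetub window had 2 peaks (WT 1), 5 (WT 2), 6 (PA 1) and 7 (PA 2). The difference was 3 peaks (exact permutation test, two-sided, p = 0.333, the smallest that 2 against 2 allows). It was 1.5 without WT 1 and 4.5 without WT 2. Fetub was singled out after seeing the counts, and groups that do not overlap give this p by construction, so the test adds nothing to the counts. A second region in the gene, at 22922476, was called in every library but WT 1 (41.8%, 61.3% and 47.6%). The start of Hrg, the histidine-rich glycoprotein gene, was covered in WT 2 and PA 2 (52.5% and 63.8%). Beyond Hrg, a PA-only region at chr16:22963235-22963752 stood near the foot of both lists (95.7% and 81.6%), with a WT 1 peak 1797 bp away.

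**Figure D3:**
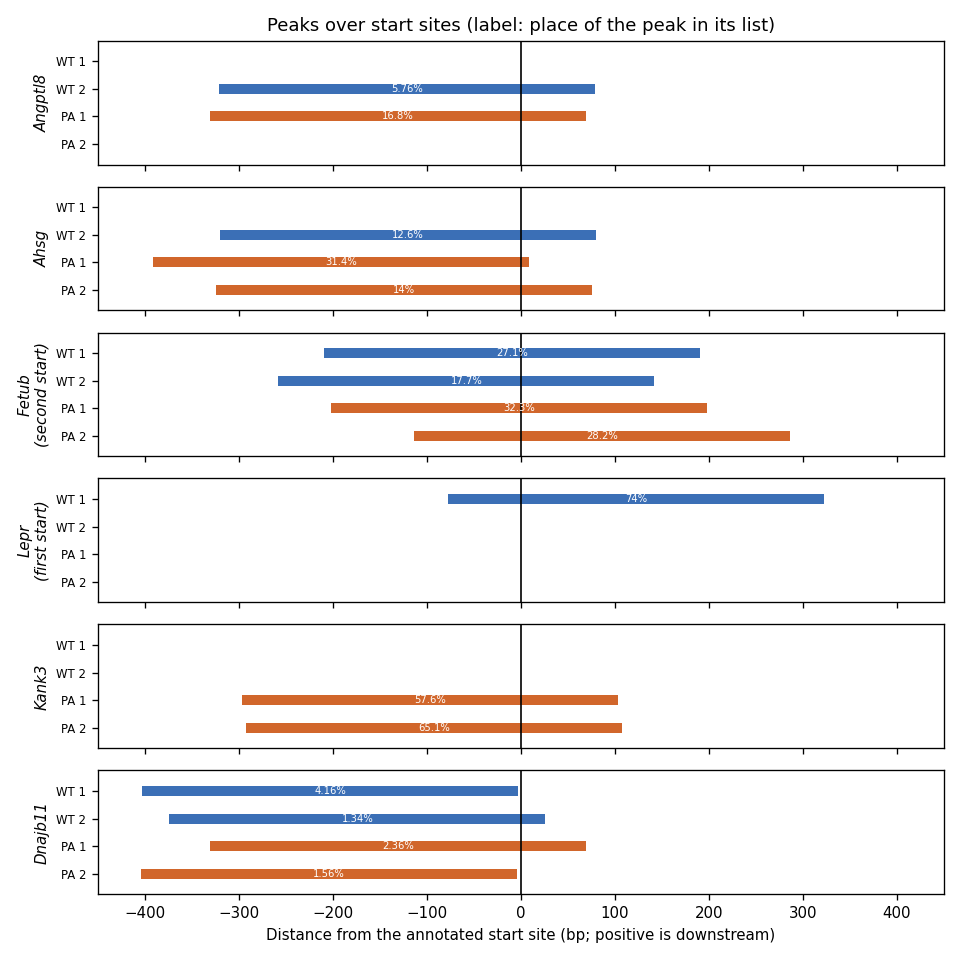
Peaks over 6 start sites, by distance in bp from the start; bars are the 400 bp peaks of each library (blue WT, orange PA) and labels give the place in the list. The Dnajb11 and downstream Fetub starts are covered in all 4 libraries, Ahsg in 3, Angptl8 in 2 of different genotype, Kank3 in both PA, and Lepr in WT 1.

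Rbp4 encodes the retinol carrier of plasma, made mainly by hepatocytes (chromosome 19, 38116620 to 38125321, minus strand, starts at 38125321 and 38124811). Neither start was covered. The nearest peak to a start lay 27518 bp away (WT 1), 27554 bp (WT 2), 8686 bp (PA 1) and 8749 bp (PA 2). The nearest calls were in PA libraries because of a PA-only region, chr19:38134007-38134469, inside Pde6c. It stood at 94.9% in PA 1 and 91.4% in PA 2, near the foot of both lists, with 27429 bp to the closest WT peak. The other 3 regions were as low, between 78.7% and 99.2%, and 0 of 4 were called in all 4 libraries. One, over the start of Ffar4 at 38096791, was missing from PA 1. The downstream Rbp4 promoter had 28 CpG in 250 bases and 70.8% GC. Of 2089 promoters with at least as many CpG, 509 (24.4%) were likewise called in no library.

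Over 21020 promoters of protein-coding genes, those called in all 4 libraries had a median of 18 CpG. Those called in 1 to 3 libraries had a median of 13, and those called in none a median of 4. Of the 11 starts that the table gives for 7 members, 1 was called in all 4 libraries, the downstream start of Fetub, against 37.0% of promoter windows of protein-coding genes. Regions of any kind covered 5 of them, against 45.5%. The promoters of Ahsg, with 6 CpG, and Angptl8, with 8, were nearer to the group without a call in this respect. So was the downstream Fetub promoter, with 7 CpG, although it was called in all 4 libraries.

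Lepr, the receptor of leptin, spans 98216 bp (chromosome 4, 101717137 to 101815352, plus strand, starts at 101717407 and 101717906). It had the most regions in all 4 libraries of any member, 7 of 9. Of these, 6 lay in the 50 kb before the gene and 1 inside it. The start was covered in WT 1 only, by a peak at 74.0% of the list, and the nearest peaks to a start in WT 2, PA 1 and PA 2 lay 6640, 6666 and 6635 bp away. PA 1 alone had a peak at 101752842 (99.5%). The regions at 101674787, 101675693 and 101683041 lay nearer to an end of Leprot than to Lepr. They were 15423, 16329 and 23677 bp from Leprot, and 41951, 40988 and 33667 bp from Lepr.
Lepr, first start, chr4:101717157-101717406, plus strand: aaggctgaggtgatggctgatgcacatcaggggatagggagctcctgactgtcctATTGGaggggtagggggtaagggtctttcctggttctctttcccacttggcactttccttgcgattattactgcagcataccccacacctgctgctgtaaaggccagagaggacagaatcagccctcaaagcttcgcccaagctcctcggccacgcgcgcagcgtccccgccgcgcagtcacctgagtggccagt
The sequence is shown because this is the receptor's start and was called in 1 library. Capitals mark a CCAAT box on the other strand at -195 to -191.

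The Lepr regions were called alike in both genotypes but did not stand at the same place. The region at chr4:101694541-101694979, 22158 bp before the gene, stood at 11.4% (WT 1), 15.8% (WT 2), 21.1% (PA 1) and 33.0% (PA 2). That at chr4:101675693-101676149 stood at 11.9%, 20.8%, 27.6% and 33.8%. Its neighbour at 101674787 stood at 15.2%, 16.8%, 21.0% and 30.3%. In each of these the PA lists had the region further down, and the genotypes did not overlap. The region at 101683041 stood at 37.9%, 46.5%, 52.7% and 61.3%. That at 101705302 stood at 45.9%, 54.7%, 72.7% and 59.4%. Inside the gene, the region at 101741979 stood at 41.9%, 46.2%, 54.1% and 58.3%. These showed the same order of the genotypes. The region nearest to the start, at 101710342, did not: it stood at 32.9% (WT 1), 41.9% (WT 2), 49.8% (PA 1) and 32.2% (PA 2).

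Thus 6 of 7 Lepr regions lay further down both PA lists than both WT lists, against 8.25% of the 17581 regions called in all 4 libraries. This comparison, and the choice of Lepr for it, were made after seeing the data. The reverse order, further down both WT lists, held for 24.3% of all such regions and for 0 of 7 at Lepr. List length bears on these percentages, since PA 2 is the longest list. With the place taken among the 17581 shared regions only, the count was again 6 of 7, against 14.0%. By line number it was 6 of 7, against 13.3%. With a library left out the condition is looser and the share over all regions higher: the count was 6 of 7 without WT 1 (against 20.95%), WT 2 (22.66%) or PA 1 (16.58%), and 7 of 7 without PA 2 (32.07%). For a single region, 2 against 2 libraries cannot reach a p below 0.333, and regions of 1 locus are not independent. Place in the list is not a measured signal. Of the other members with a region in all 4 libraries, this order held for 1 of 6 regions of Gdf15, 1 of 3 of Ahsg, which is also the 1 of Fetub, and none of the 10 at Fgf21, Angptl4, Angptl8 and Fst. By place among the shared regions it held for 3 of 6 at Gdf15, 1 of 3 at Angptl8 and 1 of 3 at Ahsg, and for none at Fgf21, Angptl4 and Fst. WT 1 had the Lepr regions highest in 6 of 7 cases, and whether read depth has a part in the order was not tested.

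**Figure D4:**
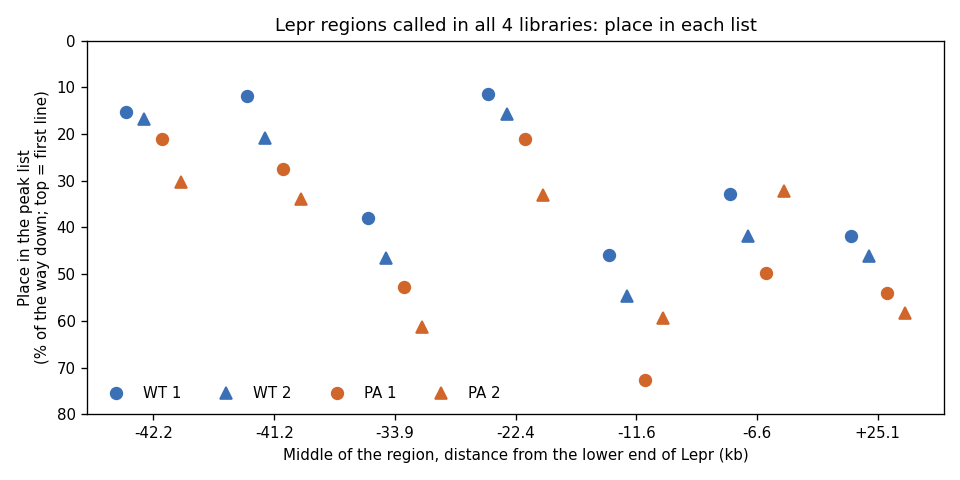
Place in each list of the 7 regions called in all 4 libraries within 50 kb of Lepr, with the first line at the top of the axis. Circles are replicate 1, triangles replicate 2, blue WT and orange PA; both PA libraries lie below both WT libraries except at the region nearest to the start (6365 bp from the gene).

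Other genes of hepatokine biology were more often covered at an end than the 9 members. Of 64 further secreted proteins, receptors and regulators, 36 (56.2%) had a covered end in all 4 libraries, against 41.3% of all protein-coding genes. No library covered an end of 16 of the 64, against 48.3% of all protein-coding genes. Among 35 secreted proteins, 18 (51.4%) were covered in all 4, such as Hamp, Selenop, Ttr and Inhbe. Among 15 receptors and partners it was 9 (60%), with Insr, Fgfr1 and Fgfr4, and among 14 regulators 9 (64.3%), with Ppara, Atf4, Ddit3 and Mlxipl. By identity of the 4 calls at gene ends, Serpina6 matched Ahsg and Il1rn matched Lepr. None of the 64 matched Angptl8. The members without a call were matched by 16 genes, among them Igf1, Angptl6, Creb3l3, Srebf1 and Stra6l.

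PA-only regions lay within 50 kb of 9 of these 64 genes (14.1%, against 9.73% of all genes) and WT-only regions within 50 kb of 8 (12.5%, against 6.58%). At Lpl, the lipase that ANGPTL4 and ANGPTL8 restrain, a PA-only region lay 1671 bp from the gene end at the foot of the lists (94.3% and 96.7%). At Gfral, the GDF15 receptor gene, one lay 23471 bp away (72.9% and 85.1%), but a WT peak was 75 bp from it. Acvr2a and Acvr2b, receptors of the activins that follistatin binds, had a PA-only region each (20014 and 32810 bp from an end). In PA 1 and PA 2 that of Acvr2a stood at 92.9% and 87.3%, and that of Acvr2b at 88.6% and 66.2%. Acvr2b also had a WT-only region 6185 bp from an end (80.1% in WT 1 and 67.1% in WT 2). The remaining genes with a PA-only region were Igfbp1, Selenop, Agt, Proc and Stat3.

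The highest of the restricted regions of this list lay 45011 bp from Igfbp1, the gene of an insulin-repressed binding protein of IGFs. It was WT-only, at 5.21% in WT 1 and 9.26% in WT 2 (chr11:7152370-7152776), and a PA-only region stood 289 bp from it (36.6% and 19.3%). Both genotypes thus had calls there at adjacent positions, and whether a peak had shifted was not tested. Other WT-only regions lay near Orm1 (26.5% and 32.9%, 11683 bp away), Enho (38.3% and 60.4%), Igfbp2 (61.1% and 62.9%), Cebpa, Stat3 and Serpina7, where the region overlapped the gene end.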

How the data were processed

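Per the labels' protocols, Omni-ATAC was run on frozen liver. Per the submitters' processing notes, reads were handled with tools that include Bowtie2 2.5.1, cutadapt 3.5, HOMER 4.10, SAMtools 1.17, bedtools 2.31.0 and R 4.1.2, on GRCm38 (mm10). The authors deposited 1 list of peak positions per library, without score, height or count. The sources used here do not give the peak caller, its threshold or the read filters. Peaks were 400 bp long with few exceptions. A list shows where the caller's threshold was passed, so a deeper library can pass it at more places.

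Peaks were merged across libraries in Python 3.11.15 with pandas 2.3.3 and assigned to genes of the RefSeq table of GRCm38.p6, which gives neither exons nor introns. Start sites and promoter sequences came from the RefSeq promoter table of the same build, which matched 7 of 9 members. Every library keeps the group in its title. Merging and gene-end calls were tested on simulated peaks. The 2 against 2 comparison of peak numbers used an exact permutation test; all other values are descriptions beside the share over all regions or genes. The text names all 9 genes, the nearest genes of their regions, and the genes of a further list that have a PA-only or WT-only region. The members and lists were chosen with earlier results of these data known. Alternatives changed list length, the upper part of the lists, merging, window, distance to the gene end and the libraries used.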

Additional observations from a re-analysis of the deposited data

How the results depend on the processing

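The number of regions called in all 4 libraries stayed within 1.5 times of 26, except with a window of 10 kb, which by its construction holds fewer regions (5). That window gave 2 PA-only and 0 WT-only regions. The count of PA-only regions was 4 under other merging rules or over 1 kb from the other genotype, and 3 with lists of equal length or the upper 50% of lists. Of those 3, all were PA-only in the full lists with equal lengths, but 1 (Ahsg) in the upper 50%. WT-only regions, 1 in the full lists, numbered 3 with lists of equal length, 2 in the upper 50% and 0 over 1 kb from a PA peak. Gene ends covered in all 4 libraries numbered 2 with a distance of 2 kb. The difference in peak number, 1.5 in the full lists, was 2.5 within 10 kb (p = 0.333, the smallest this exact permutation test allows). It was 0 with lists of equal length, -0.5 in the upper 50% and -0.0312 per 1000 peaks. With so few libraries, no setting could give a smaller p by that test.

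Leaving out a library in turn gave differences of 0 to 3 peaks, 5 to 7 PA-only regions, 1 to 7 WT-only regions, 27 to 32 regions in all remaining libraries and 0 to 1 covered gene ends (Ahsg, without WT 1). A looser condition raises such counts by construction. The replicate block, which takes PA minus WT within each replicate number, gave 1.5 peaks (exact sign-flip test, p = 0.5). Over all regions, the differences in calls WT 1 minus WT 2 and PA 1 minus PA 2 had a correlation of -0.00688. With 1 difference per genotype, that value cannot settle whether same-numbered libraries were paired or shared a batch. Unknown read depth limits every absence: a region without a call may lie just under the caller's threshold.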
